A study of Mus musculus with 6 samples.

Results

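The 4 Id inhibitors Id1, Id2, Id3 and Id4, the 3 E proteins Tcf3, Tcf4 and Tcf12, and the bHLH factors Tal1 and Lyl1 were followed in blood progenitors that had lost Cebpa. The members were taken by gene symbol: a probe set counted when the platform annotation gave it a single symbol and that symbol was a member. All 9 had exactly 1 such row, among 19938 genes in all. The cells were LSK CD150- cells, the early stem and progenitor fraction of bone marrow that carries Sca-1 and Kit and lacks CD150 and the markers of mature lineages. The control mice were Cebpafl/fl, with loxP sites around both Cebpa alleles, and the deleted mice were Cebpafl/fl;Mx1Cre. The Mx1 promoter answers interferon, and pIpC, a double-stranded RNA that raises interferon, switches on the Cre of these mice. Mice of both genotypes were injected with pIpC and sacrificed at day 18, 3 of each, and each mouse had its own Affymetrix Mouse Gene 1.0 ST array. Controls carried no Cre, so loss of Cebpa and presence of the transgene cannot be told apart. Ages are not given in the labels.

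Id proteins and E proteins belong to the helix-loop-helix family. E proteins bind E-box DNA as dimers, either with each other or with tissue-restricted bHLH factors such as Tal1 and Lyl1, through a basic region that touches DNA and a helix-loop-helix that holds the dimer. Id proteins have the helix-loop-helix but no basic region, so a dimer of an Id protein and an E protein cannot bind DNA. In blood, E proteins drive lymphoid genes, Tal1 and Lyl1 act in stem cells and in the erythroid and megakaryocytic lineages, and Id2 is needed for innate lymphoid cells, natural killer cells and subsets of dendritic cells. Id genes are classical targets of BMP signalling.

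The promoter sequences of 3 Id genes are shown because Id2 rose and its relatives Id3 and Id4 did not pass the test. Each is the 250 bases before the RefSeq start of the gene on assembly GRCm38.p6, read 5′ to 3′ on the strand of the gene. Id2 is at chr12:25096093-25096342 on the minus strand, Id3 at chr4:136143572-136143821 on the plus strand and Id4 at chr13:48260866-48261115 on the plus strand. Capitals mark the E-box CANNTG and the CCAAT box, the latter in either orientation.
Id2: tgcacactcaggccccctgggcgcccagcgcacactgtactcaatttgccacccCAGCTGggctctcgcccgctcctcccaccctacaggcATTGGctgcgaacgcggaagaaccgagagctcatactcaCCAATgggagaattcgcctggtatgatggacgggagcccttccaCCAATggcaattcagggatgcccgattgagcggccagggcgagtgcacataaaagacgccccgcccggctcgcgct
Id3: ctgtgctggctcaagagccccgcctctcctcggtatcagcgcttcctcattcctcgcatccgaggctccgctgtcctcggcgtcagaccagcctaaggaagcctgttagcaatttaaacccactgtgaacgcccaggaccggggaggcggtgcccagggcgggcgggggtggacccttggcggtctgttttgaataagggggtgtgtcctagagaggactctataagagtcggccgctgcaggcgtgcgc
Id4: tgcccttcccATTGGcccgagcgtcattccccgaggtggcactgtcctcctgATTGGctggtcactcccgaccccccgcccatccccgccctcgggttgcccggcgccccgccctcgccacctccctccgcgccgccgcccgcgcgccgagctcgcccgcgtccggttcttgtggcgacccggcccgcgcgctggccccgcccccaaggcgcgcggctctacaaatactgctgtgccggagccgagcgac

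Id2 held 1 E-box, CAGCTG at positions -196 to -191 from the start, and 3 CCAAT boxes, the nearest at positions -76 to -72. Id4 held 2 CCAAT boxes and 0 E-boxes, and Id3 held 0 of either. Among 32851 promoter windows of the same length, 66.2% held CANNTG and 33.8% held CCAAT. The letters TTGCNNAA, a form of the site that C/EBP factors bind, were searched on both strands and had 0 matches in each of the 3 Id windows, against 9.56% of all windows with a match. The letters GGCGCC, a form of the element bound by BMP-activated Smads, had 1 match each in Id2 and Id4, 0 in Id3, and a match in 9.59% of all windows. No matches of different motifs overlapped in these windows. Promoter windows were searched for 7 of the 9 members, all except Id1 and Tcf4. Any member window on chromosome 18, which carries Tcf4, was left out of the search. Of the other members searched, Tcf3 and Lyl1 had 1 E-box each, Tcf12 had 1 in 2 of its 3 windows, and the 2 windows of Tal1 had 0. TTGCNNAA had 1 match in 1 window each of Tal1 and Tcf12. These matches describe letters only.

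Cebpa read 7.84, 7.85 and 7.73 in controls and 6.37, 5.82 and 6.09 in deleted mice on the log2 scale of the deposited signals, so the genotypes stood apart at the targeted gene. The labels do not say whether its probes lie in the deleted part of the gene. The labels call the mice female, whereas the Y-linked gene Kdm5d read 8.07 to 8.48 and Xist, the RNA of the inactive X, read 4.46 to 5.13 over all 6 arrays. Of the sorting markers, Kit read 10.02 to 10.31 in controls and 9.23 to 9.59 in deleted mice. Slamf1, which encodes CD150, read 3.48 to 3.93 in controls and 3.94 to 4.86 in deleted mice, a log2 fold change of 0.53 (limma adjusted p = 0.314). Ly6a, which encodes Sca-1, had no row that named it alone. Cd34, which is not part of the sort as described, read 11.46 to 11.62 in controls and 11.19 to 11.34 in deleted mice. The median of each array lay between 6.22 and 6.23 in controls and between 6.16 and 6.20 in deleted mice. With 3 arrays a group, precision is limited by their number.

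Of the 9 members, Id2 alone changed at a limma adjusted p under 0.05, and it rose. Over all genes this share was 1.43% in either direction with 0.702% rising and 0.732% falling, against 1 member of 9. Of the changed genes 49.0% were higher, a share of 61.6% after quantile normalization and 65.8% after median centring, and Id2 rose under each. Control and deleted mice had separate ranges for Id2, Tcf4 and Tal1, 3 members of 9, against 21.2% of all genes. At an unadjusted p under 0.05 the members past it were Id2 and Tcf4, against 15.9% of all genes, 9.1% higher and 6.77% lower. The median log2 fold change of the 9 members was 0.04, and that of all genes was 0.03.

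**Figure D1:**
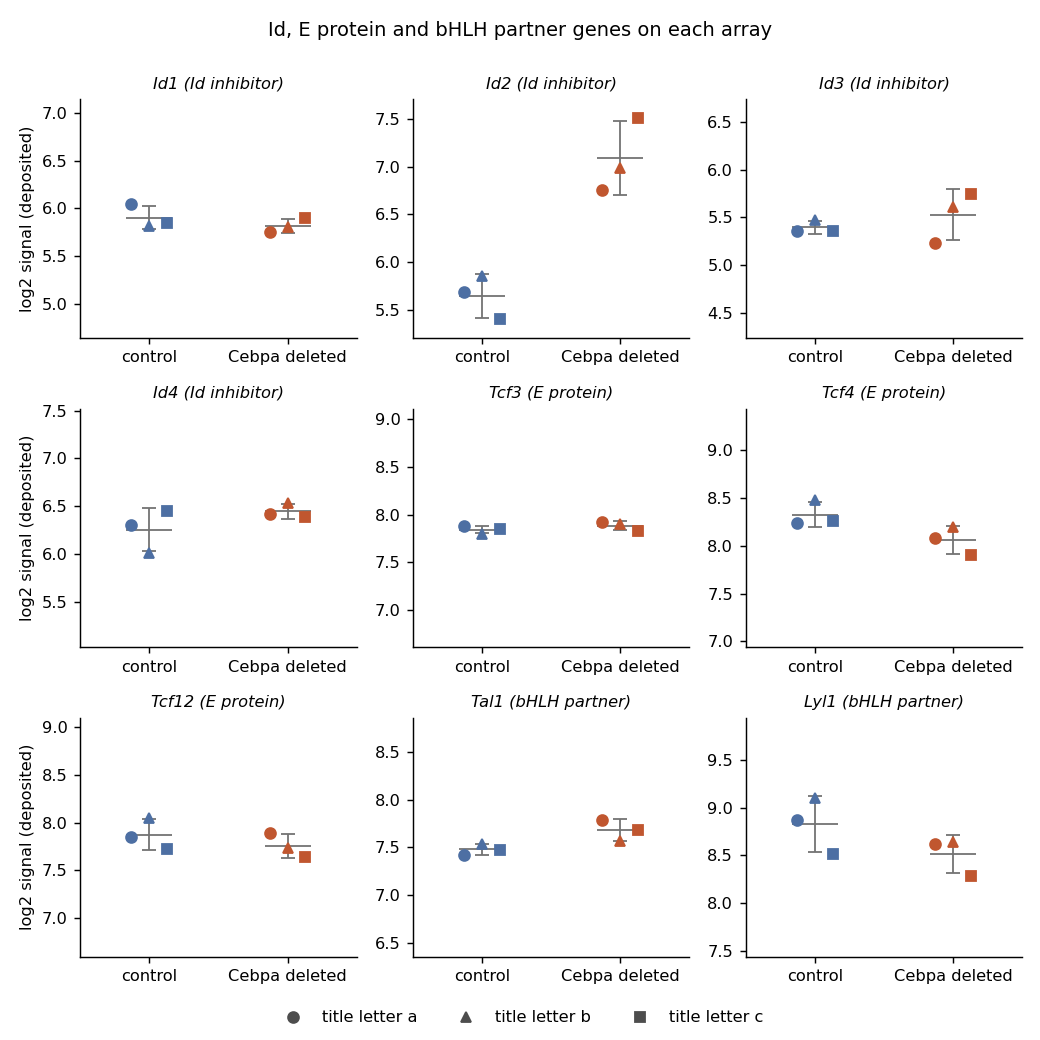
Log2 signal (y axis, deposited values, the same span in each panel) of the 9 members in control and Cebpa-deleted mice. Each point is an array, its shape the letter in the sample title (mice with the same letter are different animals), and the bar is the mean with its SD, n = 3. Id2 sits between 5.40 and 5.85 in controls and between 6.75 and 7.51 in deleted mice, while the other panels show groups that overlap or lie close together.

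Among the inhibitors, Id2 read 5.68, 5.85 and 5.40 in controls and 6.75, 6.99 and 7.51 in deleted mice. Each deleted mouse lay above each control, and deleted c was the highest. The means were 5.65 ± 0.23 (SD, n = 3) and 7.09 ± 0.39 (SD, n = 3), a rise of 1.44 ± 0.19 (SE) on the log2 scale or 2.71-fold (95% interval 2.01 to 3.66), with a limma adjusted p of 0.0108. Ranked by p, Id2 was number 51 of 19938 genes, and it had the number 12 rise in size. On its 6 values alone, the exact two-sided permutation p was 0.1, which is the lowest possible with 3 mice a group. Each array read the RNA of a sorted population, so more cells with Id2 transcripts and more transcript per cell cannot be told apart.

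Among the deleted mice, the order of the Id2 values was not that of the Cebpa values. Deleted b had the lowest Cebpa value (5.82) and an Id2 value of 6.99, between those of the other deleted mice, and deleted c had the highest Id2 value (7.51) with an intermediate Cebpa value (6.09). In controls Id2 was dim. Of 1027 olfactory receptor genes, which blood cells are not known to use, 11.1% read at or above the control mean of Id2, against 0.584% at or above its deleted mean. Probe sets differ in response, so this gauges dimness and not amount. Where the control signal lies within background, the fold of the deposited values understates the change.

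Id1, a classical BMP target, read 6.04, 5.81 and 5.84 in controls and 5.75, 5.80 and 5.90 in deleted mice. The groups overlapped, and the log2 fold change was -0.08 (95% interval -0.33 to 0.16, limma adjusted p = 0.769). Id3, which restrains E proteins in lymphocytes, read 5.36, 5.48 and 5.36 in controls and 5.23, 5.61 and 5.75 in deleted mice. Its deleted mice lay on both sides of the controls, with a log2 fold change of 0.13 (95% interval -0.18 to 0.44, limma adjusted p = 0.710). Id4, the remaining inhibitor, read 6.30, 6.01 and 6.45 in controls and 6.42, 6.53 and 6.38 in deleted mice. Those groups overlapped as well, with a log2 fold change of 0.19 (95% interval -0.10 to 0.48, limma adjusted p = 0.529).

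The intervals allow a fold of at most 1.25 for Id1, 1.36 for Id3 and 1.39 for Id4 in the deposited values. Id1 and Id3 were dim on every array: 7.40% and 16.5% of olfactory receptor genes read at or above their control means, and 8.67% and 14.5% at or above their deleted means. For Id4 these shares were 3.51% and 2.04%. Changes of Id1 and Id3 that stay within background were not detectable here.

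None of the E proteins passed the test. Tcf3, whose transcripts give E12 and E47, read 7.88, 7.80 and 7.85 in controls and 7.92, 7.90 and 7.83 in deleted mice. The 6 values lay within a narrow band and the groups overlapped, with a log2 fold change of 0.04 ± 0.10 (SE, limma adjusted p = 0.881). The 95% interval, -0.17 to 0.26, allows a fold of at most 1.20, the tightest bound among the 9 members. Tcf12, which encodes HEB, read 7.85, 8.05 and 7.72 in controls and 7.90, 7.74 and 7.64 in deleted mice. Its groups overlapped, and its log2 fold change was -0.12 (95% interval -0.39 to 0.16, limma adjusted p = 0.708).

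Tcf4, which encodes E2-2, the E protein of plasmacytoid dendritic cells, read 8.24, 8.48 and 8.26 in controls and 8.08, 8.20 and 7.90 in deleted mice. Each deleted value lay below each control value, by as little as the step from 8.24 to 8.20, and deleted c was the lowest. The means were 8.33 ± 0.13 (SD, n = 3) and 8.06 ± 0.15 (SD, n = 3), with a log2 fold change of -0.27 ± 0.12 (SE) that missed the threshold (limma adjusted p = 0.314, unadjusted p = 0.0498). Of all genes, 19.2% had a larger change in either direction.

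Of the bHLH factors that pair with E proteins, Tal1, also known as SCL, read 7.42, 7.54 and 7.48 in controls and 7.79, 7.57 and 7.69 in deleted mice. The deleted values all lay above the controls, with control b and deleted b close together. The difference was 0.20 ± 0.10 (SE) on the log2 scale and missed the threshold (limma adjusted p = 0.392). Lyl1, the close relative of Tal1, read 8.87, 9.10 and 8.52 in controls and 8.62, 8.64 and 8.28 in deleted mice. Control c lay within the range of the deleted mice, so the groups overlapped, and the difference of -0.32 ± 0.16 (SE) on the log2 scale missed the threshold (limma adjusted p = 0.389). The intervals were -0.03 to 0.44 for Tal1 and -0.68 to 0.05 for Lyl1, so a fall of Lyl1 by up to 1.60-fold was within them.

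**Figure D2:**
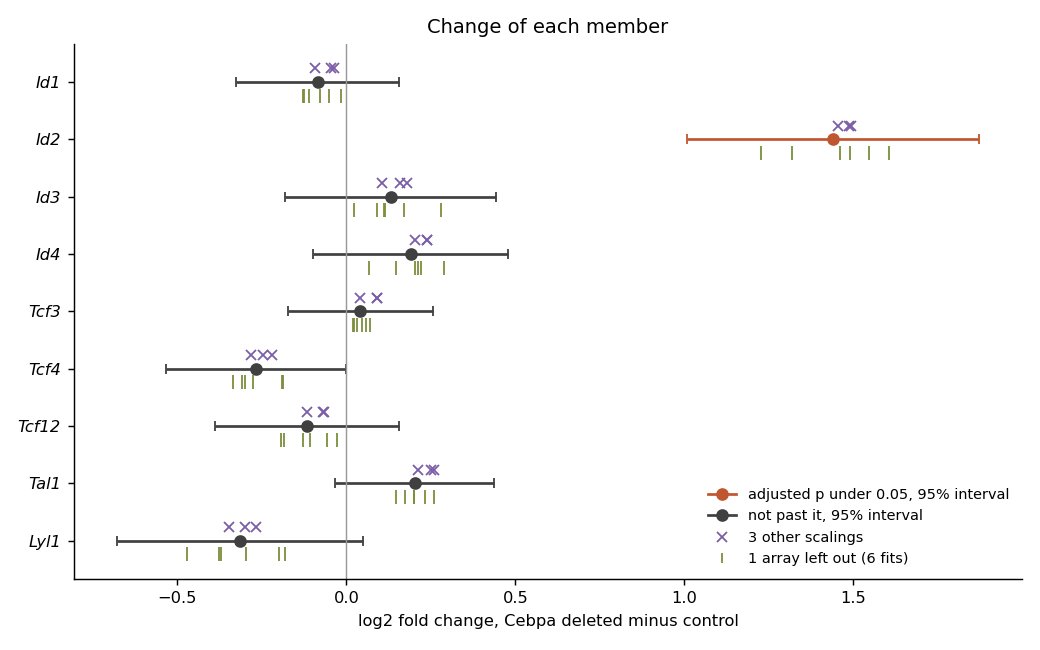
Log2 fold change (x axis, Cebpa deleted minus control) of each member, with the 95% interval of the limma fit. Crosses are the same change under 3 other scalings of the arrays and ticks are the fits that leave out 1 array. Id2, at 1.44, is the only member in the colour of a limma adjusted p under 0.05, and the points of each member stay on its own side of 0.

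The change of Id2 was also set against that of each other member within the same arrays. In all 8 pairs the log2 difference between Id2 and the other member was higher in each deleted mouse than in each control. The change of Id2 exceeded that of the other member by 1.24 (Tal1) to 1.76 (Lyl1) on the log2 scale, and by 1.25 for Id4, 1.31 for Id3 and 1.52 for Id1 within its own family. Each pair gave an exact two-sided permutation p of 0.1, also 0.1 after adjustment over the 8 pairs. That is the lowest these group sizes can give. All 8 pairs share the same Id2 values, and Id2 was the member already called. Separation in every pair therefore restates the rise of Id2 and adds no further support. Within the deleted mice, deleted c was the highest for Id1, Id2 and Id3 and the lowest for Id4, Tcf3, Tcf4, Tcf12 and Lyl1.

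Other class II bHLH factors, which dimerise with E proteins in muscle, nerve and other tissues, were largely dim. Of 36 listed, 35 were measured and 0 passed the limma test in either direction, with 1 higher and 0 lower at an unadjusted p under 0.05. Their median log2 fold change was 0.03, the same as that of all genes, and 20 of them read below 6.20, the median of all values, on every array. The smallest p-values belonged to Tcf21, a factor of mesenchymal cells (log2 fold change 0.31, limma adjusted p = 0.281), and Myf5, a muscle factor (0.24, limma adjusted p = 0.352).

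Cofactors that join Tal1 and E proteins in larger complexes were measured for 23 of 23 listed genes, and 0 passed the limma test, with 4 higher and 3 lower at an unadjusted p under 0.05. The median log2 fold change was -0.03. Lmo2, the LIM protein that bridges Tal1 to its partners, read 10.31, 10.60 and 10.16 in controls and 9.97, 9.86 and 9.60 in deleted mice. Its values did not overlap between the genotypes, but the difference of -0.54 ± 0.15 (SE) on the log2 scale missed the threshold (limma adjusted p = 0.106). Kdm1a, a histone demethylase, had a log2 fold change of 0.29 (limma adjusted p = 0.197).

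BMP and TGF-beta signalling, which acts on Id genes through Smad proteins, was measured for 31 of 31 listed ligands, receptors and Smads. None passed the limma test, with 2 higher and 4 lower at an unadjusted p under 0.05 and a median log2 fold change of 0.06. Of the 31 genes, 8 read below 6.20 on every array, among them Bmpr1a, Bmpr1b and Bmp2. Eng, a co-receptor for BMP and TGF-beta ligands, read 7.42, 7.70 and 7.67 in controls and 7.13, 7.12 and 7.14 in deleted mice. Its deleted values lay in a narrow band below all controls, with a log2 fold change of -0.47 ± 0.11 (SE, limma adjusted p = 0.0747) that passed in 1 alternative, the fit restricted to the brighter 50% of genes (0.0489). For Bmpr2, the type II BMP receptor, the difference was -0.51 ± 0.13 (SE) on the log2 scale (limma adjusted p = 0.103).

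Lymphoid genes that E proteins are known to drive were measured for 26 of 29 listed. None passed the limma test, with 4 higher and 1 lower at an unadjusted p under 0.05 and a median log2 fold change of 0.04. Of the 26 measured, 7 read below 6.20 on every array. Dntt, the terminal transferase of lymphoid progenitors, read 10.42, 10.95 and 10.80 in controls and 11.20, 11.44 and 11.62 in deleted mice. The deleted values were all higher, with a log2 fold change of 0.70 ± 0.16 (SE) that missed the threshold (limma adjusted p = 0.0688). It did pass under 4 alternatives: with an intensity trend in the prior (0.0470), among the brighter 50% of genes (0.0456), after median centring (0.0493) and with the title letter as a replicate block (0.0379). Vpreb1, part of the surrogate light chain of early B cells, had a log2 fold change of 0.46 ± 0.12 (SE, limma adjusted p = 0.0956).

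**Figure D3:**
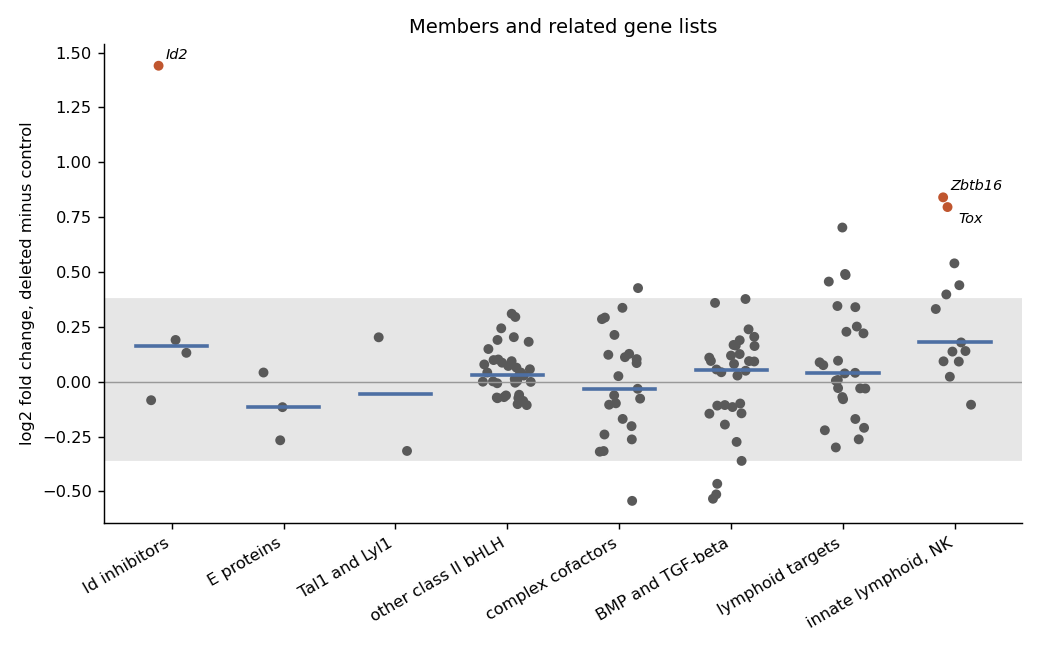
Log2 fold change (y axis, Cebpa deleted minus control) of single genes in the member groups, the related pathway lists and the innate lymphoid marker list. Points in colour have a limma adjusted p under 0.05 and are named, the horizontal bars are list medians, and the grey band runs from -0.36 to 0.38, the 5th to 95th percentile of all genes. Among the genes drawn, Id2 at 1.44 lies farthest from 0, and Tox and Zbtb16 are the only others in colour. The other marker lists are not drawn and hold larger called changes, such as Cpa3 at 3.47 and S100a8 at -3.51.

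Among markers of innate lymphoid and natural killer cells, cells that depend on Id2, Zbtb16 and Tox rose. Of 14 listed, 13 were measured, 2 rose and 0 fell, with 4 higher and 0 lower at an unadjusted p under 0.05 and a median log2 fold change of 0.18. Their summed linear signal was 974 to 1116 in controls and 1250 to 1569 in deleted mice. Without the 2 genes that rose, the other 11 summed to 688 to 799 in controls and 707 to 1055 in deleted mice, so the groups overlapped. Zbtb16, the PLZF factor of innate lymphoid precursors, read 6.44, 6.11 and 6.51 in controls and 7.24, 7.09 and 7.26 in deleted mice, a log2 rise of 0.84 ± 0.13 (SE, limma adjusted p = 0.0163). Tox, a factor of lymphoid development, read 7.84, 7.76 and 7.81 in controls and 8.61, 8.70 and 8.50 in deleted mice, a log2 rise of 0.80 ± 0.10 (SE, limma adjusted p = 0.00929). Both genes were higher in each deleted mouse than in each control. The call of Tox was lost without control b (limma adjusted p = 0.0527), that of Zbtb16 without control b or any deleted mouse (up to 0.0617), and both when every deposited row was tested (0.0777 and 0.120). Eomes, Ncr1, Klrb1c, Klrd1 and Il2rb, 5 of the 13, read below 6.20 on every array, while Tbx21 reached 6.22 and Prf1 read 6.21 to 6.57. Il2rb and Ncr1 were also higher in each deleted mouse than in each control, but missed the threshold. Their log2 fold changes were 0.40 and 0.33 (limma adjusted p = 0.147 and 0.205). With Zbtb16 and Tox they were the 4 of 13 measured markers whose groups did not overlap, 30.8% against 21.2% of all genes. Ncr1 read 4.14 to 4.70, near the olfactory receptor medians of 4.34 in controls and 4.39 in deleted mice. The groups of the other markers overlapped, among them Gata3, Rora and Il18r1, with log2 fold changes of -0.10, 0.02 and 0.14. Of the 13 markers, 12 had a positive log2 fold change and 1 a negative one. The part of such cells in the rise of Id2 was not tested.

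Of 10 listed mast cell and basophil markers, all measured, Cpa3 rose (log2 fold change 3.47, limma adjusted p = 2.2e-06) and 0 fell, with 2 higher and 1 lower at an unadjusted p under 0.05, and 7 of the 10 read below 6.20 on every array. The summed linear signal of the list was 673 to 712 in controls and 2910 to 3596 in deleted mice, a difference carried by Cpa3: the other 9 summed to 433 to 484 and 455 to 471. Of 12 dendritic cell markers, 0 passed, with 0 at an unadjusted p under 0.05, a median log2 fold change of 0.08 and 7 below 6.20 on every array. None passed the limma test among 8 B cell, 8 T cell, 6 erythroid and 6 megakaryocyte markers measured, with 0, 1, 0 and 3 at an unadjusted p under 0.05. Of 10 neutrophil markers S100a8, S100a9 and Camp fell, of 8 monocyte and macrophage markers Cd68 fell, and of 7 stem and progenitor surface markers Cd48 rose while Kit, Flt3 and Procr fell. In that order of lists, 30%, 12.5% and 57.1% of the markers were called, against 1.43% of all genes. At a limma unadjusted p under 0.05 there were 6, 3 and 7 markers, against 15.9% of all genes. The genotypes did not overlap for 60%, 37.5% and 100% of them, against 21.2% of all genes. Single left-out arrays ended the calls of Camp (any except control b and deleted a, limma adjusted p up to 0.0915), Kit (each except deleted a, up to 0.101) and Flt3 (each except deleted c, up to 0.145). The call of Flt3 was also lost under all 3 other scalings (0.0511 to 0.0582), and those of Cd48, Kit, Flt3, Procr, Camp and Cd68 when every deposited row was tested (0.0745 to 0.176). The part of any such shift in the values of the members was not tested.

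The genes whose values were most like those of Id2 were sought among 17032 named genes, by the root mean square difference over the 6 arrays after centring each gene on its own mean. The nearest was Dhx40, a putative RNA helicase, at 0.23 log2 units. Abhd17b, a depalmitoylase, followed at 0.27, the zinc finger gene Zfp711 at 0.29, the G protein subunit Gna14 at 0.32, the matrix glycoprotein gene Emilin2 at 0.33 and the ubiquitin ligase gene Trim13 at 0.33. Their log2 fold changes lay between 1.00 (Zfp711) and 1.38 (Emilin2), below the 1.44 of Id2. They were chosen for resembling a gene that differed between the genotypes, so their own changes are given as a description, with no test. In deleted c, where Id2 was highest, none of the 6 rose as far above its own mean.

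**Figure D4:**
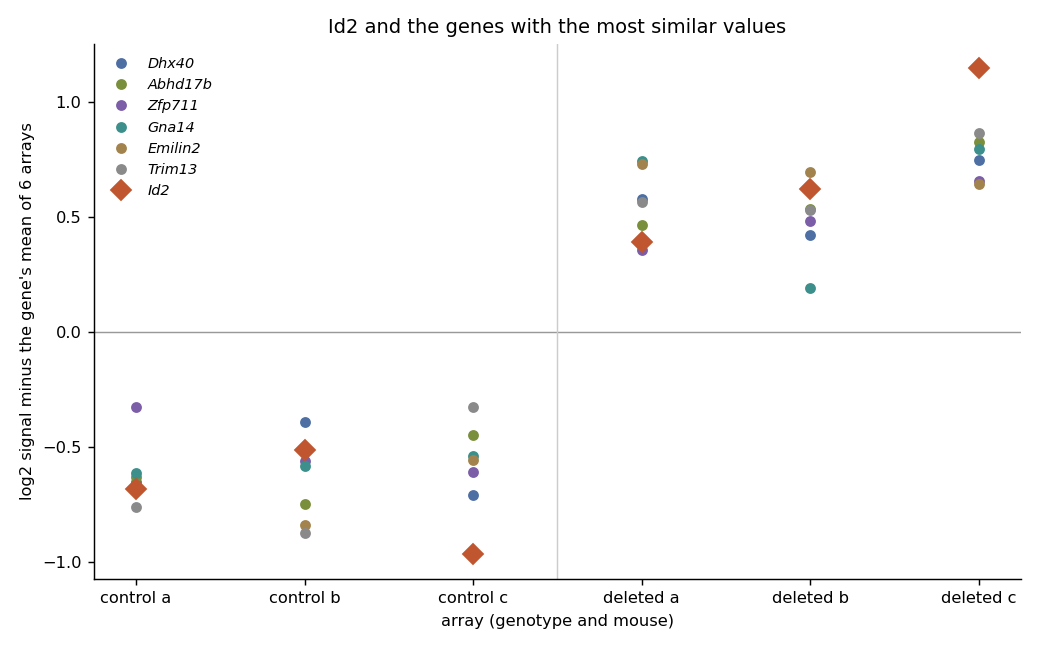
Log2 signal minus the mean of the gene over the 6 arrays (y axis) on each array (x axis) for Id2 and the 6 genes nearest to it. All 7 genes lie below their mean in each control and above it in each deleted mouse, and Id2 spans the widest range, lowest in control c and highest in deleted c.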

How the data were processed

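Expression was measured on 6 Affymetrix Mouse Gene 1.0 ST arrays, for which the authors deposited 35556 rows of log2 signal. The submitters' processing notes name RMA (background correction, normalization and summary of probes) and version 1.1.2 of Affymetrix Expression Console, without settings. Rows naming 1 gene were kept, at the highest mean over the arrays where a gene had several, with no filter.

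Genotypes were compared over all genes with limma 3.58.1 in R 4.3.3 (lmFit, eBayes), two-sided, with Benjamini-Hochberg adjustment, a threshold of 0.05 and 95% intervals from the same fit. The script was tested on simulated data. Tables and exact tests used Python 3.11.15, NumPy 2.4.6, SciPy 1.17.1 and pandas 2.3.3, and figures matplotlib 3.10.9.

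Members and lists were chosen with earlier results of these data known, so they give no independent support. Named were all members, list genes past the threshold (or, in pathway lists, the 2 smallest p-values) and the 6 genes nearest Id2. The search for those 6 left out short RNAs, receptor families of smell, clone names and antigen receptor segments. The plan was up to 3 names per marker list, but 4 called stem and progenitor surface markers are named. Some uncalled innate lymphoid markers are also named. Olfactory receptors as a gauge of dim signal, motifs and neighbours of Id2 were added later. Promoters came from RefSeq, GRCm38.p6. List genes with no row naming them alone are not reported here. Alternatives covered the prior, dim genes, scaling, rows, block, array weights and each left-out array.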

Additional observations from a re-analysis of the deposited data

How the results depend on the processing

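The 9 members were refitted under up to 17 alternatives, 149 fits in all, and every one kept the direction of the log2 fold change. In 148 it also kept its side of the threshold. The exception was Id2 when every deposited row was tested, with a log2 fold change of 1.44 and a limma adjusted p of 0.114, so that 0 members were called; 8 of the genes' rows passed there. Among the brighter 50% of genes 0 of the 5 members left were called, because the Id genes are dimmer than that. Leaving out each array gave Id2 a log2 fold change of 1.23 to 1.61 and a limma adjusted p of 0.0198 to 0.0446, with 1 member called each time. The labels do not say that the letters of the titles pair the mice. Same-letter deviations correlated at -0.01, -0.04 and 0.06 over genes, and 2 of 6 arrays correlated best with their own letter. With so few mice, these values cannot settle whether mice were paired. With the letter as a replicate block Id2 kept 1.44 (limma adjusted p = 0.0217), 1 member was called and 274 genes passed in all.

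The count of 286 genes called overall fell to 126 and 53 when control a or b was left out and to 145, 84 and 143 when deleted a, b or c was left out. It was 438 among the brighter 50% of genes and 8 when every deposited row was tested. The median log2 fold change of all genes was 0.03 as deposited and 0.01 to 0.08 under the other scalings. Without detection calls, signal over background could be judged only from intensities, which limits Id1, Id3 and Id2 in controls.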

Other observations

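The genes beside Id2 on chromosome 12 did not pass the test. In the gene order of RefSeq among genes measured here, the 4 on one side were Kidins220, Mboat2, Rrm2 and Cys1 and the first 3 on the other side were Rnf144a, Rsad2 and Cmpk2, a selection made after the data were seen. Kidins220, a scaffold protein of neurotrophin signalling, had a log2 fold change of -0.42 ± 0.15 (SE, limma adjusted p = 0.210), and Rnf144a, a ubiquitin ligase, one of -0.41 ± 0.13 (SE, limma adjusted p = 0.154). Rsad2, an interferon-induced antiviral gene, had one of 0.29 ± 0.12 (SE, limma adjusted p = 0.265). The remaining ones lay between -0.28 (Mboat2) and 0.04 (Cys1), and none of the 7 passed. Kidins220, Rnf144a, Mboat2 and Rsad2 had a limma unadjusted p under 0.05 (0.0199, 0.00939, 0.0383 and 0.0340), against 15.9% of all genes. Their groups did not overlap, against 21.2% of all genes without overlap. Rrm2, Cys1 and Cmpk2 had neither.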
